A study of Canis lupus familiaris with 8 samples.

Results

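Metalloproteinases and their inhibitors were compared between 2 preparations of dog retina. The members were all genes of the deposited table whose symbol is MMP, ADAM, ADAMTS, ADAMTSL or TIMP followed by a number, which gave 49 of 12824 genes. They comprised 14 matrix metalloproteinases (MMP), 11 membrane-anchored ADAM proteins, 17 secreted ADAMTS proteases, 4 ADAMTS-like proteins (ADAMTSL) and 3 tissue inhibitors of metalloproteinases (TIMP). TIMP2 and the other family members without values were not analysed here. The 4 PFA-fixed libraries came from left eyecups held in 4% paraformaldehyde, a crosslinking fixative, for 3 h and in 2% for 24 h at 4 °C, then in 15% and 30% sucrose for 24 h each, before being embedded for freezing. The 4 fresh-frozen libraries came from right eyecups embedded without fixation or sucrose. All eyes came from male wild-type Beagles aged 31 weeks, and every library was prepared from total RNA with the same stranded kit, made for very small inputs. Fixed tissue went through a kit meant for paraffin blocks, with proteinase K digestion lasting 18 h at 56 °C and DNA digested again afterwards, whereas fresh-frozen tissue went through a micro-scale column kit. Fixation, eye side and extraction kit thus changed together and cannot be told apart. The 4 replicates of each preparation are described by the study as biological, but which libraries share a dog is not stated.

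These proteins cut or guard the extracellular matrix. MMPs are zinc enzymes that are made as inactive zymogens and cleave collagens, laminins and other matrix proteins, some after secretion and some while tethered to the cell membrane. ADAM proteins shed the outer parts of membrane proteins, and several of them have lost the catalytic motif and act as receptors instead. ADAMTS proteases trim procollagens, proteoglycans and von Willebrand factor, whereas ADAMTSL proteins share their ancillary domains without a catalytic one and bind microfibrils. TIMPs block these enzymes by occupying the active site. In the eye the balance of these activities is known for its part in the turnover of Bruch's membrane, sclera and the aqueous outflow pathway.

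The values were log2 CPM, the log2 of read counts relative to a scaled library size, as deposited by the authors. Their linear sums were 1021000 to 1058000 CPM in PFA-fixed and 947400 to 975600 CPM in fresh-frozen libraries. Read totals alone cannot give the sums of the PFA-fixed libraries, so library sizes were scaled before CPM were taken. The effective depth, estimated from the spacing of low values, was between 11030000 and 15340000 reads in PFA-fixed and between 21610000 and 22810000 in fresh-frozen libraries. The lowest value of the table, -3.12 log2 CPM, corresponds to 2.01 added reads, so a difference of a gene near it is understated. The 22 genes of a rod list summed to between 49430 and 55150 CPM in PFA-fixed and between 44010 and 51140 CPM in fresh-frozen libraries, which fits the label retina. All 12 genes of a list of sclera and fibroblasts were lower in PFA-fixed retina, and their sum was between 199 and 223 CPM there, against 8523 to 11640 CPM in fresh-frozen retina, with DPT at the lowest value in some fixed libraries. Of 12 genes of the retinal pigment epithelium (RPE), 11 were lower, with sums between 503 and 587 CPM in PFA-fixed and between 2805 and 3845 CPM in fresh-frozen libraries. Of 10 endothelial genes 9 were lower, with sums of 514 to 635 CPM in PFA-fixed and 1002 to 1361 CPM in fresh-frozen libraries. All 8 pericyte and smooth muscle genes were lower, with sums of 354 to 434 CPM in PFA-fixed and 1632 to 2391 CPM in fresh-frozen libraries. Of 12 microglia and macrophage genes 10 were lower, with sums of 40.0 to 56.6 CPM in PFA-fixed and 238 to 382 CPM in fresh-frozen libraries, and TMEM119 at the lowest value in some fixed libraries. Of 9 melanocyte genes 8 were lower, with sums of 156 to 166 CPM in PFA-fixed and 1554 to 2322 CPM in fresh-frozen libraries, and MLANA at the lowest value in some fixed libraries. PMEL and MITF stand in both the melanocyte and the RPE list, so these lists are not separate. Of 8 oligodendrocyte and myelin genes 5 were lower and 1 higher, with sums of 58.4 to 65.5 CPM in PFA-fixed and 260 to 1078 CPM in fresh-frozen libraries, where replicate 1 stood apart from the other 3 (at most 334 CPM). Of 13 Müller glia genes 6 were lower and 1 higher, and of 8 ganglion cell genes 4 were lower and 2 higher. For all genes the shares were 34.7% lower and 33.9% higher. The part of all the listed cell types in the results on the members was not tested, and fewer cells of a type and less RNA per cell cannot be told apart in bulk tissue.

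Among the members, 23 fell and 11 rose in PFA-fixed retina, and 15 were not called at a limma adjusted p of 0.05 (68.7% of all genes were called in either direction). This made 46.9% lower and 22.4% higher, beside 34.7% lower and 33.9% higher of all 12824 genes. Falls of at least 2-fold numbered 17 (34.7%), beside 13.7% of all genes, and rises of at least 2-fold numbered 7 (14.3%), beside 10.6% of all genes. Falls of at least 4-fold numbered 8, beside 5.84% of all genes, and rises of that size 2, beside 1.67%. The groups did not overlap in 31 members, with all PFA-fixed libraries below in 23 (beside 31.6% of all genes) and above in 8 (beside 31.3%). The median difference was -0.33 on the log2 scale, against -0.02 for all genes. With each library centred on the median of the rod list, a scaling that moves the median of all genes to -0.74, 36 members were lower and 5 higher. This scaling takes the median level within each library, which need not be that of the same rod gene. The rod genes themselves had a median difference of 0.28 as deposited (-0.26 to 1.11). It thus shifted genes by more than the median rod gene changed.

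**Figure D1:**
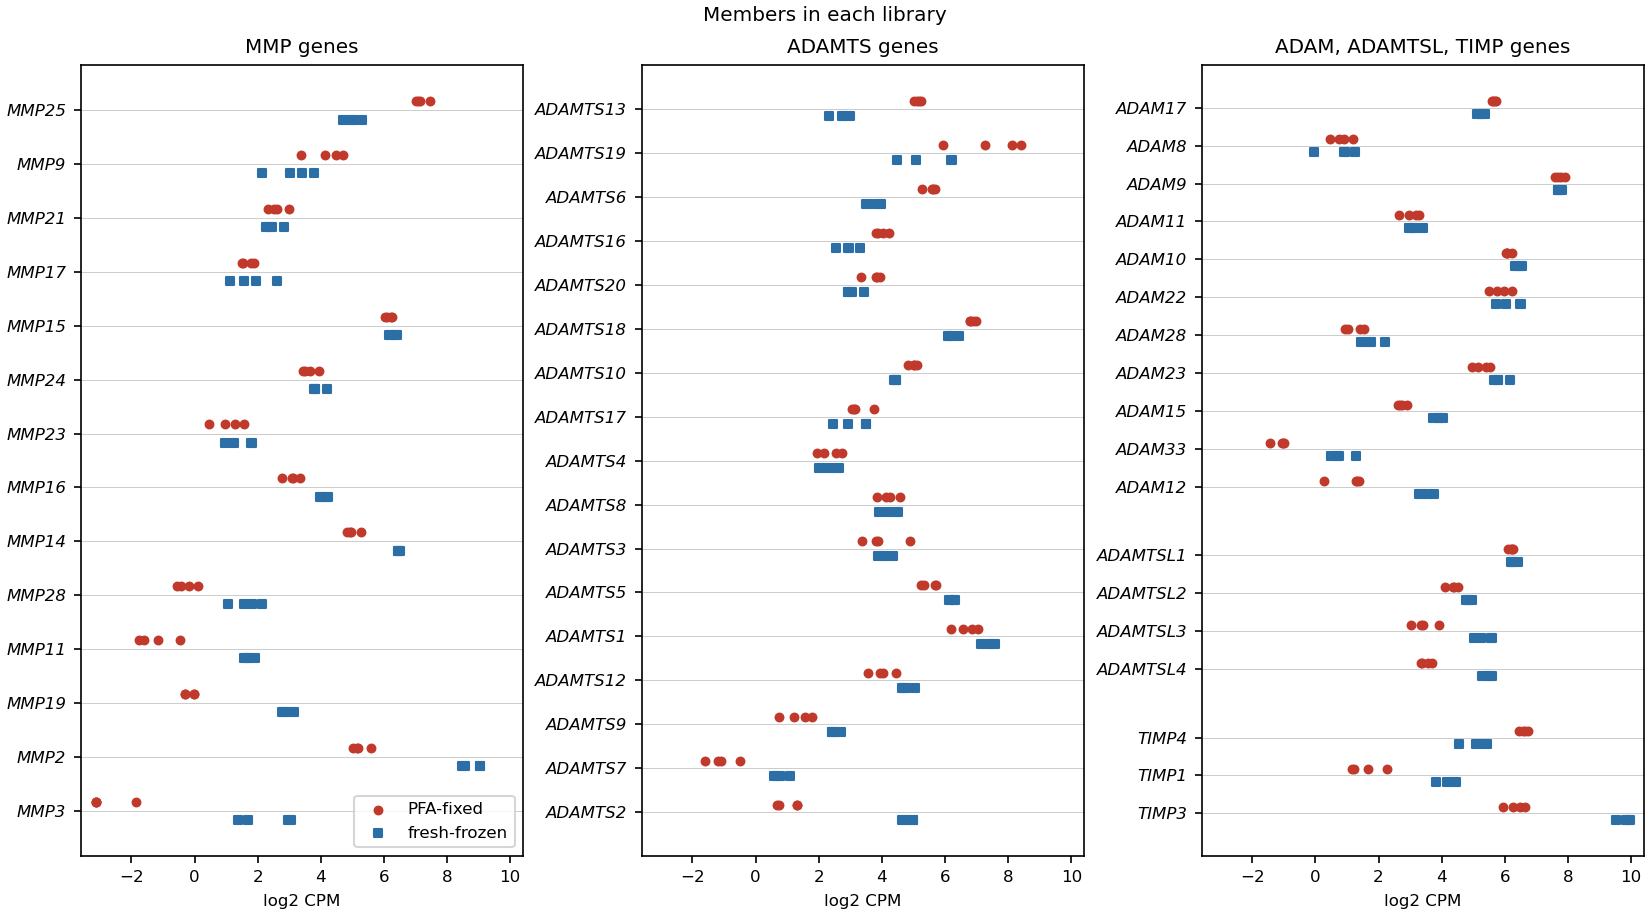
Expression of the 49 members in each library (horizontal axis, log2 CPM), by family and ordered by difference, with PFA-fixed libraries as red circles and fresh-frozen ones as blue squares (4 each). MMP2 and TIMP3 lie well to the left in every PFA-fixed library, MMP25 and ADAMTS13 to the right, and ADAM9 and ADAMTSL1 overlap between the preparations.

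The table holds only genes above 1 CPM in at least 4 libraries. Of the members, 42 exceeded 1 CPM in all 8 libraries. ADAM33, ADAMTS7, MMP3, MMP11 and MMP19 did so in all 4 fresh-frozen and in 0 PFA-fixed libraries, so they could enter the table only through the group where they are high. MMP28 did so in 4 fresh-frozen and 1 PFA-fixed library, so it too reached the filter only through the fresh-frozen group. No member exceeded 1 CPM in PFA-fixed libraries alone. Counts over the members therefore describe these genes and give no support for a family-wide direction. The marker lists above carry the same limit. Their genes LUM, TYR and TMEM119, for example, exceeded 1 CPM in every fresh-frozen library and in no PFA-fixed one.

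**Figure D2:**
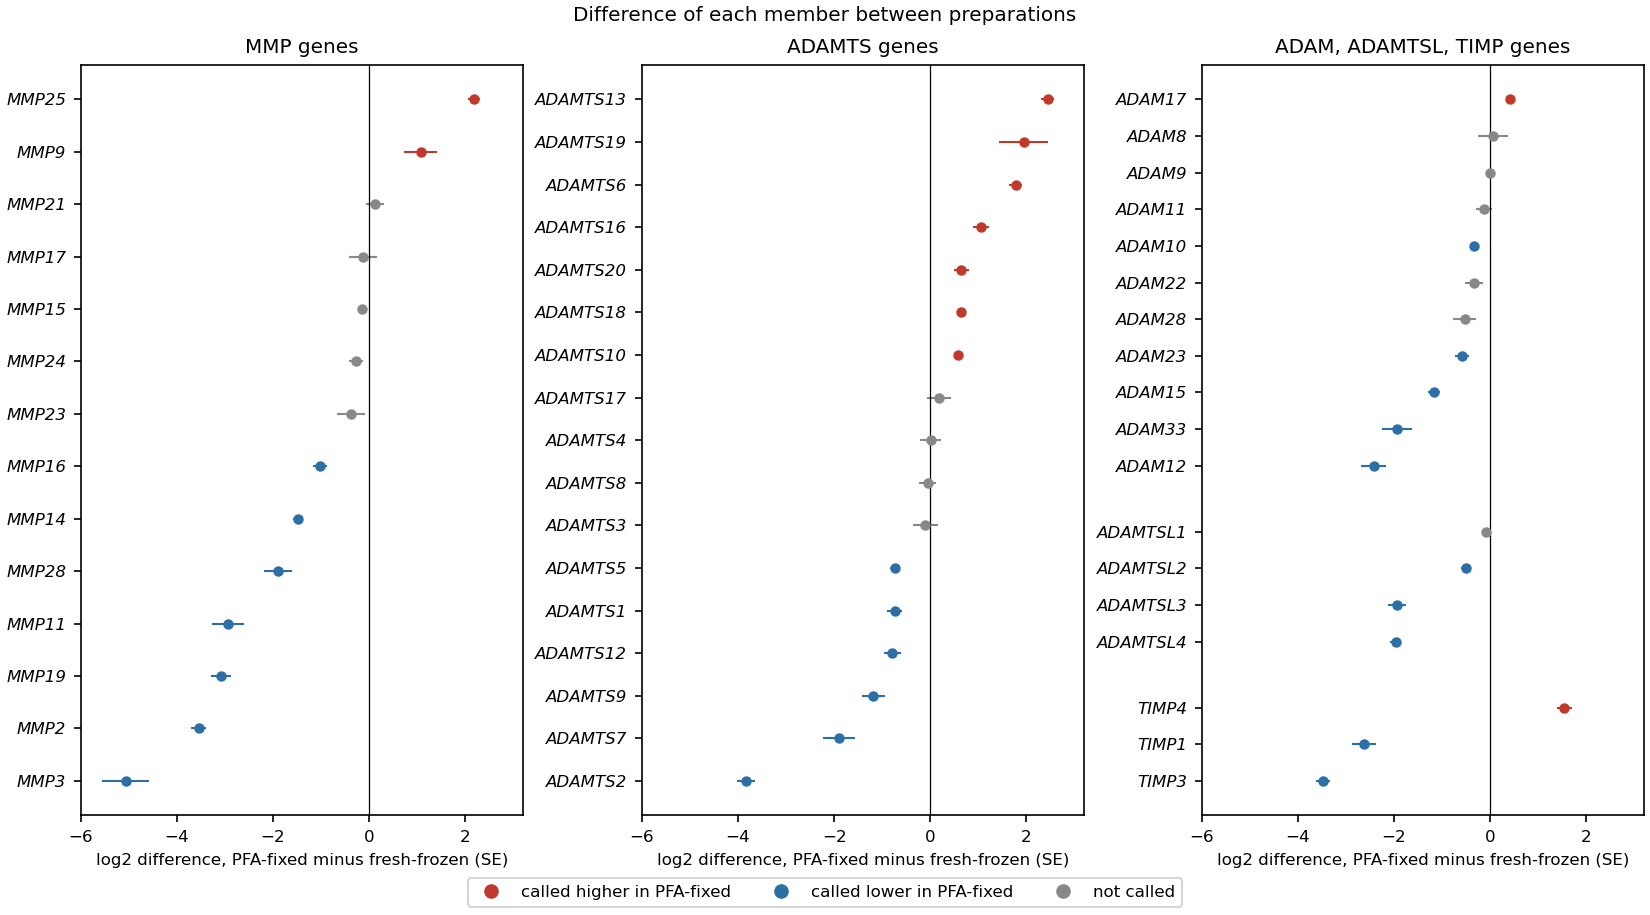
Difference of each member between the preparations (horizontal axis, log2 scale, PFA-fixed minus fresh-frozen, bars SE of the limma fit), with called rises in red, called falls in blue and genes without a call in grey. The MMP panel runs from -5.07 for MMP3 to 2.19 for MMP25, and the ADAMTS panel from -3.83 for ADAMTS2 to 2.44 for ADAMTS13. The rises of ADAM17, ADAMTS10, ADAMTS18 and ADAMTS20 have the opposite sign when libraries are centred on the rod list median.

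Of the 14 MMP genes, 7 fell and 2 rose, beside 34.7% lower and 33.9% higher of all genes. The falls included MMP3, MMP11, MMP19 and MMP28, which reached the filter only through the fresh-frozen group. With a minimum mean of 3 log2 CPM, which tested fewer genes, 3 MMP genes fell and 2 rose. The gelatinase MMP2, which degrades denatured and basement membrane collagen, was at 5.16, 5.03, 5.18 and 5.60 log2 CPM in PFA-fixed replicates 1 to 4, against 8.56, 9.05, 8.48 and 9.05 in fresh-frozen replicates 1 to 4. Every fixed library lay below every fresh-frozen one, and fresh-frozen replicates 2 and 4 were the higher pair. The difference was -3.55 ± 0.15 (SE) on the log2 scale, an 11.7-fold fall (limma adjusted p = 4.06e-09). The other gelatinase, MMP9, went the other way, with 4.47, 4.69, 4.14 and 3.36 log2 CPM in PFA-fixed and 3.78, 3.39, 2.15 and 3.03 in fresh-frozen libraries. The groups overlapped, since PFA-fixed replicate 4 lay below fresh-frozen replicates 1 and 2. The rise of 1.08 ± 0.34 (SE; limma adjusted p = 0.0150) lost its call when PFA-fixed replicate 2 was left out (0.90, limma adjusted p = 0.0518) or with the rod list median (0.36).

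Both stromelysins fell. MMP3, stromelysin 1, which cleaves many matrix proteins and activates other MMP zymogens, stood at the lowest value of -3.12 log2 CPM in PFA-fixed replicates 1 to 3 and at -1.85 in replicate 4, against 1.68, 3.05, 1.37 and 2.97 in fresh-frozen libraries. Fresh-frozen replicates 2 and 4 were again the higher pair, as for MMP2. The difference of -5.07 ± 0.49 (SE; limma adjusted p = 2.31e-06) rests on values at or near the lowest one. With the added reads taken away, the log2 ratio of the group means was -7.05. MMP11, stromelysin 3, a zymogen activated inside the cell by furin, was at -1.60, -1.15, -1.76 and -0.45 log2 CPM in PFA-fixed and at 1.69, 1.91, 1.65 and 1.56 in fresh-frozen libraries. Its difference was -2.94 ± 0.34 (SE; limma adjusted p = 1.00e-05).

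Membrane-type MMPs divided. MMP14, the membrane-type 1 enzyme that activates the MMP2 zymogen at the cell surface, was at 4.95, 4.92, 5.28 and 4.82 log2 CPM in PFA-fixed libraries. In fresh-frozen libraries it was at 6.52, 6.44, 6.44 and 6.47, a narrow range that did not overlap with the fixed one. Its difference was -1.48 ± 0.10 (SE; limma adjusted p = 9.31e-08). MMP16, the membrane-type 3 enzyme, fell by 1.03 on the log2 scale, again without overlap. MMP25, the membrane-type 6 enzyme, which is anchored by a lipid and known in humans as a leukocyte protease, was at 7.09, 7.0, 7.14 and 7.46 log2 CPM in PFA-fixed against 4.69, 5.02, 4.94 and 5.29 in fresh-frozen libraries. Its lowest fixed library lay well above its highest fresh-frozen one, with a rise of 2.19 ± 0.13 (SE), or 4.56-fold (limma adjusted p = 4.26e-08). The microglia and macrophage list was lower in the same libraries, and its part in the values of MMP25 was not tested. MMP15, the membrane-type 2 enzyme, was at 6.02, 6.09, 6.21 and 6.25 log2 CPM in PFA-fixed and at 6.39, 6.21, 6.40 and 6.16 in fresh-frozen libraries, with overlapping groups (-0.15 ± 0.08, SE; limma adjusted p = 0.135). MMP17, anchored like MMP25, differed by -0.13 ± 0.29 (SE), and MMP24, the membrane-type 5 enzyme of the nervous system, by -0.27 ± 0.15 (SE). Neither was called as deposited. MMP15 and MMP24 were called lower under both rod list centrings, MMP17 under that on the median alone, and MMP24 also without PFA-fixed replicate 4 (-0.37).

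Of the remaining MMPs, MMP19 and MMP28 fell. MMP19 was at -0.31, -0.01, -0.01 and -0.29 log2 CPM in PFA-fixed and at 3.14, 2.99, 2.77 and 2.81 in fresh-frozen libraries, a difference of -3.08 ± 0.20 (SE; limma adjusted p = 1.06e-07). MMP28, epilysin, known from keratinocytes, fell by 1.90 on the log2 scale with the groups apart. MMP21, which in humans and mice is needed for left-right asymmetry of the body, differed by 0.12 ± 0.19 (SE), and the type II membrane protein MMP23 by -0.38 ± 0.30 (SE). Neither was called as deposited, and with the rod list median both were called lower, at -0.60 and -1.10.

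Of the 11 ADAM genes, 5 fell (45.5%, beside 34.7% of all genes) and 1 rose (9.09%, beside 33.9%). Differences of at least 2-fold were all falls. ADAM12, a protease of muscle and connective tissue, was at 1.30, 0.26, 1.33 and 1.38 log2 CPM in PFA-fixed against 3.37, 3.77, 3.27 and 3.57 in fresh-frozen libraries. The groups lay apart, with PFA-fixed replicate 2 the lowest by about 1 unit. The difference was -2.42 ± 0.26 (SE; limma adjusted p = 5.21e-06). ADAM33, expressed by mesenchymal cells, was at -1.0, -1.06, -1.04 and -1.43 log2 CPM in PFA-fixed and at 0.50, 1.29, 0.68 and 0.76 in fresh-frozen libraries, a difference of -1.94 ± 0.32 (SE; limma adjusted p = 1.85e-04). ADAM15, found in endothelium and epithelium, was at 2.63, 2.68, 2.74 and 2.89 log2 CPM in PFA-fixed and at 4.04, 3.91, 3.73 and 3.89 in fresh-frozen libraries, a fall of 1.16 ± 0.13 (SE; limma adjusted p = 6.79e-06).

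The main sheddases differed by less. ADAM10, which starts Notch signalling and cuts the amyloid precursor protein, was at 6.08, 6.08, 6.24 and 6.03 log2 CPM in PFA-fixed and at 6.50, 6.55, 6.31 and 6.37 in fresh-frozen libraries. It fell by 0.33 ± 0.08 (SE; limma adjusted p = 0.00267), and the groups were separated by a small gap between PFA-fixed replicate 3 and fresh-frozen replicate 3. ADAM17, which releases tumour necrosis factor and ligands of the epidermal growth factor receptor, was at 5.60, 5.71, 5.63 and 5.70 log2 CPM in PFA-fixed and at 5.24, 5.25, 5.11 and 5.37 in fresh-frozen libraries. Its rise of 0.42 ± 0.08 (SE; limma adjusted p = 5.01e-04) as deposited was 0.15 and not called with the rod list mean, and turned to -0.30 with the rod list median. Within each library the log2 ratio of ADAM17 to ADAM10, which a constant shift of a library cannot move, was -0.44 ± 0.13 in PFA-fixed and -1.19 ± 0.14 in fresh-frozen libraries (SD, n = 4 each). ADAM9, whose loss causes cone-rod dystrophy in dogs and humans, was at 7.60, 7.68, 7.91 and 7.77 log2 CPM in PFA-fixed and at 7.69, 7.82, 7.74 and 7.68 in fresh-frozen libraries. The groups overlapped, and its difference of 0.01 ± 0.07 (SE; limma adjusted p = 0.924) turned to -0.257 and -0.710, both called, under the rod list centrings on the mean and on the median.

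ADAM11, ADAM22 and ADAM23 lack the catalytic motif and serve as neuronal receptors of secreted LGI proteins. ADAM23 was at 5.41, 4.97, 5.15 and 5.53 log2 CPM in PFA-fixed and at 5.65, 5.78, 6.16 and 5.79 in fresh-frozen libraries, and fell by 0.58 ± 0.14 (SE; limma adjusted p = 0.00253). ADAM22 was at 5.96, 5.49, 5.76 and 6.23 log2 CPM in PFA-fixed against 5.72, 6.05, 6.51 and 6.47 in fresh-frozen libraries. Its difference of -0.33 ± 0.19 (SE; limma adjusted p = 0.140) became a call when PFA-fixed replicate 4 was left out (-0.45) or fresh-frozen replicate 1 (-0.48), and also on the rod list mean (-0.593) and median (-1.046). ADAM11 differed by -0.125 ± 0.17 (SE; limma adjusted p = 0.524), by 0.196, not called, after quantile normalization, and by -0.844, called, on the rod list median. ADAM28, known from lymphocytes, differed by -0.52 ± 0.24 (SE; limma adjusted p = 0.0701), and was called without fresh-frozen replicate 2 (-0.63), with no intensity trend, and on the rod list mean (-0.791) and median (-1.244). ADAM8, known from leukocytes, differed by 0.06 ± 0.32 (SE; limma adjusted p = 0.878) and exceeded 1 CPM in 7 libraries.

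The 17 ADAMTS genes went both ways, with 7 up (41.2%) and 6 down (35.3%) in PFA-fixed retina. All genes split in much the same way, with 33.9% higher and 34.7% lower. ADAMTS2, which removes the amino-terminal propeptide of fibrillar procollagens, was at 1.30, 0.69, 0.73 and 1.32 log2 CPM in PFA-fixed and at 5.0, 4.63, 4.75 and 4.99 in fresh-frozen libraries. The groups lay more than 3 units apart, with a difference of -3.83 ± 0.19 (SE), or a 14.3-fold fall (limma adjusted p = 9.87e-09). ADAMTS3, of the same subgroup and also a processor of the lymphatic growth factor VEGFC, was at 3.36, 3.80, 3.89 and 4.90 log2 CPM in PFA-fixed and at 3.86, 4.13, 4.02 and 4.35 in fresh-frozen libraries. Its groups overlapped and it was not called (-0.10 ± 0.26, SE; limma adjusted p = 0.745). PFA-fixed replicate 4 was high for it, and without that library the difference was -0.41 and called (limma adjusted p = 0.0462), as it was on the rod list median (-0.821).

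Of the 6 proteoglycan-cleaving members, 3 fell and 1 rose. The aggrecanases ADAMTS1 and ADAMTS5, which the annotation places next to each other on one chromosome, both fell by 0.74 (SE 0.16 and 0.11; limma adjusted p = 0.00143 and 8.14e-05). ADAMTS1 was at 6.58, 7.03, 6.86 and 6.18 log2 CPM in PFA-fixed and at 7.59, 7.50, 7.15 and 7.37 in fresh-frozen libraries. ADAMTS5 was at 5.68, 5.70, 5.33 and 5.25 log2 CPM in PFA-fixed and at 6.31, 6.28, 6.19 and 6.12 in fresh-frozen libraries. Neither pair of groups overlapped. ADAMTS9, a versican-cleaving enzyme, was at 0.75, 1.80, 1.23 and 1.56 log2 CPM in PFA-fixed and at 2.42, 2.71, 2.52 and 2.41 in fresh-frozen libraries, a fall of 1.18 ± 0.23 (SE; limma adjusted p = 7.86e-04). ADAMTS20, its close relative, rose by 0.65 ± 0.17 (SE; limma adjusted p = 0.00429), with overlapping groups and values of -0.07 with the rod list median and 0.38, not called, with the rod list mean. ADAMTS4 and ADAMTS8 differed by 0.01 ± 0.22 and -0.06 ± 0.17 (SE) and were not called as deposited, whereas on the rod list median both were called lower, at -0.708 and -0.776.

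ADAMTS7 and ADAMTS12, which cleave cartilage oligomeric matrix protein, both fell. ADAMTS7 was at -1.11, -0.51, -1.61 and -1.19 log2 CPM in PFA-fixed and at 0.72, 0.78, 1.08 and 0.57 in fresh-frozen libraries, a difference of -1.89 ± 0.34 (SE; limma adjusted p = 3.51e-04). ADAMTS12 was at 3.95, 4.44, 4.04 and 3.55 log2 CPM in PFA-fixed and at 4.63, 4.68, 4.77 and 5.04 in fresh-frozen libraries, without overlap, and fell by 0.79 ± 0.17 (SE; limma adjusted p = 0.00142).

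The largest rise among ADAMTS genes was that of ADAMTS13. ADAMTS13, which cuts von Willebrand factor and is made mainly in liver, was at 5.25, 5.10, 5.03 and 5.19 log2 CPM in PFA-fixed and at 2.32, 2.72, 2.76 and 2.99 in fresh-frozen libraries. All fixed libraries lay above all fresh-frozen ones, and the rise of 2.44 ± 0.14 (SE) was 5.44-fold (limma adjusted p = 3.70e-08). VWF, the gene of its substrate and an endothelial product, fell by 2.64 in the same libraries. ADAMTS6, which with ADAMTS10 acts on fibrillin microfibrils, was at 5.58, 5.69, 5.63 and 5.28 log2 CPM in PFA-fixed and at 3.68, 3.98, 3.48 and 3.95 in fresh-frozen libraries, a rise of 1.78 ± 0.13 (SE; limma adjusted p = 2.85e-07). ADAMTS10, in which a variant causes open-angle glaucoma in Beagles, was at 5.02, 5.02, 4.84 and 5.11 log2 CPM in PFA-fixed and at 4.45, 4.38, 4.42 and 4.44 in fresh-frozen libraries. Its rise was 0.58 ± 0.09 (SE; limma adjusted p = 1.11e-04) as deposited and -0.14, not called, with the rod list median.

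ADAMTS19, an enzyme without a settled substrate, spread most among the members that rose. It was at 7.27, 8.13, 8.41 and 5.94 log2 CPM in PFA-fixed and at 6.19, 6.21, 4.48 and 5.08 in fresh-frozen libraries. PFA-fixed replicate 4 lay below fresh-frozen replicates 1 and 2, so the groups overlapped. The rise was 1.95 ± 0.51 (SE; limma adjusted p = 0.00501) and between 1.61 and 2.45 without single libraries, with the call kept in each. MINAR2, the next protein-coding gene in the annotation, was at 0.78, 1.42, 2.48 and 0.21 log2 CPM in PFA-fixed and at -0.39, -0.11, -1.61 and -0.25 in fresh-frozen libraries, a rise of 1.81 ± 0.50 (SE; limma adjusted p = 0.00664). MINAR2 exceeded 1 CPM in every PFA-fixed library and in no fresh-frozen one. It could thus enter the table only through the group where it is high. For ADAMTS19 and MINAR2 alike, PFA-fixed replicate 3 was the highest library, PFA-fixed replicate 4 the lowest fixed one and fresh-frozen replicate 3 the lowest of all. MMP9 was likewise lowest in fresh-frozen replicate 3 and, among fixed libraries, in replicate 4.

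ADAMTS16 rose by 1.06 ± 0.17 (SE; limma adjusted p = 1.34e-04), at 4.02, 4.22, 3.82 and 3.88 log2 CPM in PFA-fixed against 2.92, 2.55, 2.95 and 3.29 in fresh-frozen libraries, and differed by 0.34, not called, with the rod list median. ADAMTS18, whose loss in humans causes small corneas and rod-cone dystrophy, was at 6.87, 6.99, 6.78 and 6.80 log2 CPM in PFA-fixed and at 6.16, 6.43, 6.08 and 6.19 in fresh-frozen libraries. It rose by 0.64 ± 0.08 (SE; limma adjusted p = 3.31e-05) as deposited and differed by -0.07, not called, with the rod list median. ADAMTS17, in which variants cause lens luxation and glaucoma in dogs, differed by 0.18 ± 0.24 (SE; limma adjusted p = 0.528), with overlapping groups and -0.54, not called, with the rod list median.

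Of the 4 ADAMTSL genes, 3 fell and none rose, beside 34.7% lower and 33.9% higher of all genes. ADAMTSL4, whose loss dislocates the lens in humans, was at 3.70, 3.56, 3.37 and 3.35 log2 CPM in PFA-fixed and at 5.54, 5.58, 5.29 and 5.42 in fresh-frozen libraries, a difference of -1.96 ± 0.11 (SE; limma adjusted p = 3.27e-08). ADAMTSL3 was at 3.42, 3.33, 3.02 and 3.91 log2 CPM in PFA-fixed and at 5.01, 5.26, 5.55 and 5.59 in fresh-frozen libraries, a difference of -1.93 ± 0.19 (SE; limma adjusted p = 2.34e-06). In both genes the groups were more than 1 unit apart. ADAMTSL2, in which a variant causes the stiff-skinned Musladin-Lueke syndrome of Beagles, was at 4.39, 4.51, 4.11 and 4.37 log2 CPM in PFA-fixed and at 4.96, 4.76, 4.88 and 4.82 in fresh-frozen libraries. It fell by 0.51 ± 0.10 (SE; limma adjusted p = 9.90e-04), without overlap. ADAMTSL1 was at 6.22, 6.19, 6.26 and 6.11 log2 CPM in PFA-fixed and at 6.41, 6.20, 6.25 and 6.22 in fresh-frozen libraries. It differed by -0.08 ± 0.07 (SE; limma adjusted p = 0.341) as deposited, and was called lower when centred on the rod list mean (-0.34) or median (-0.80).

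The 3 inhibitors did not move together. TIMP3, which binds to the matrix, is a component of Bruch's membrane and is the gene of Sorsby fundus dystrophy in humans, was at 6.48, 6.27, 6.63 and 5.94 log2 CPM in PFA-fixed and at 9.53, 9.91, 9.83 and 9.96 in fresh-frozen libraries. The lowest fresh-frozen library was almost 3 units above the highest fixed one, and the difference was -3.48 ± 0.14 (SE), an 11.1-fold fall (limma adjusted p = 2.28e-09). TIMP1, a soluble inhibitor induced in injury, was at 1.68, 2.28, 1.22 and 1.16 log2 CPM in PFA-fixed and at 4.46, 4.39, 3.81 and 4.16 in fresh-frozen libraries. It fell by 2.62 ± 0.25 (SE; limma adjusted p = 2.15e-06). TIMP4, known mainly from heart, brain and fat, was at 6.58, 6.46, 6.65 and 6.72 log2 CPM in PFA-fixed and at 5.44, 4.55, 5.08 and 5.17 in fresh-frozen libraries, and rose by 1.55 ± 0.15 (SE), or 2.92-fold (limma adjusted p = 3.03e-06). Its fixed libraries spanned a narrower range than its fresh-frozen ones, with fresh-frozen replicate 2 the lowest. The log2 ratio of TIMP4 to TIMP3 within a library, where a constant shift of that library cancels, was 0.28 ± 0.34 in PFA-fixed and -4.75 ± 0.52 in fresh-frozen libraries (SD, n = 4 each), a change of 5.02 between members chosen for their difference.

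In the dog annotation each of these TIMP genes overlaps a synapsin gene, which encodes a coat protein of synaptic vesicles. SYN1, which overlaps TIMP1, averaged 6.54 ± 0.25 log2 CPM in PFA-fixed and 6.44 ± 0.35 in fresh-frozen libraries (SD, n = 4 each). SYN3, which overlaps TIMP3, averaged 4.02 ± 0.30 in PFA-fixed and 3.76 ± 0.34 in fresh-frozen libraries, and SYN2, which overlaps TIMP4, averaged 4.01 ± 0.32 in PFA-fixed and 4.23 ± 0.44 in fresh-frozen libraries (SD, n = 4 each). The differences of 0.10, 0.27 and -0.22 were not called (limma adjusted p = 0.622, 0.230 and 0.389), while the TIMP genes that overlap them differed by -2.62, -3.48 and 1.55. The strand setting of the authors' counting is not given in the sources used here, so reads of overlapping genes may have been shared.

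**Figure D3:**
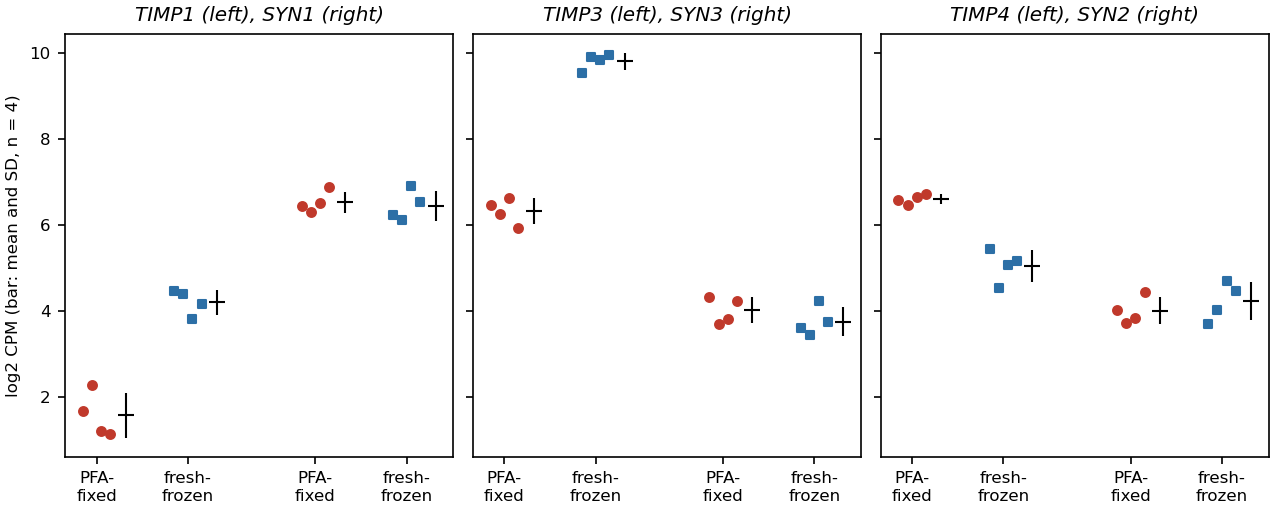
Expression (log2 CPM, points are libraries, bars mean and SD of n = 4) of 3 TIMP genes and the synapsin gene that overlaps each in the annotation, PFA-fixed in red and fresh-frozen in blue. TIMP1 and TIMP3 are lower and TIMP4 higher in every PFA-fixed library, whereas the synapsin groups overlap.

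Other members also lie against measured genes. ADAM33 overlaps SIGLEC1, a sialic acid receptor of macrophages, which fell by 1.64 on the log2 scale beside the fall of 1.94 in ADAM33. ADAMTSL3 overlaps SAXO2, a microtubule-binding gene, which rose by 1.38 where ADAMTSL3 fell by 1.93. ADAMDEC1, the gene next to ADAM28 and a relative outside the rule for members, was at 2.46, 1.71, 1.95 and 2.25 log2 CPM in PFA-fixed and at 0.36, 0.24, -0.39 and 1.49 in fresh-frozen libraries, and rose by 1.67 ± 0.36 (SE; limma adjusted p = 0.00149). MMP9 stands between ZNF335 and the neuronal chloride transporter gene SLC12A5, which rose by 1.07 and 0.70. The neighbours of ADAMTS13, REXO4 and CACFD1, differed by -0.12 and -0.30. The length of the gene in the annotation had a Spearman correlation with the difference of 0.06 over the 49 members and of 0.03 over 12479 matched genes, given as a description.

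Set side by side, the families had medians on the log2 scale of -0.70 for MMP (-5.07 to 2.19), -0.33 for ADAM (-2.42 to 0.42), 0.01 for ADAMTS (-3.83 to 2.44), -1.22 for ADAMTSL (-1.96 to -0.08) and -2.62 for TIMP (-3.48 to 1.55). Falls made up 7 of 14 MMP genes, 45.5% of ADAM, 35.3% of ADAMTS, 75.0% of ADAMTSL and 66.7% of TIMP genes. Rises made up 14.3% of MMP, 9.09% of ADAM, 41.2% of ADAMTS, 0% of ADAMTSL and 33.3% of TIMP genes. Of all genes 34.7% fell and 33.9% rose, shares near those of ADAMTS. The differences between families were not tested. The ADAMTS median was 0.01 as deposited, 0.40 after quantile normalization, -0.255 on the rod list mean and -0.708 on its median. The families include genes that reached the filter only through the fresh-frozen group (MMP3, MMP11, MMP19, MMP28, ADAM33 and ADAMTS7). With a minimum mean of 3 log2 CPM, medians were -0.268 for MMP, -0.327 for ADAM, 0.575 for ADAMTS, -1.219 for ADAMTSL and -0.965 for TIMP. The order of the families thus depends on genes of low level.

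As summed levels, TIMP genes took 182 ± 15.7 CPM in PFA-fixed and 955 ± 108 CPM in fresh-frozen libraries (SD, n = 4 each). MMP genes took 341 ± 26.8 CPM in PFA-fixed and 722 ± 90.8 CPM in fresh-frozen libraries. ADAMTSL genes took 116 ± 3.09 CPM in PFA-fixed and 192 ± 3.46 CPM in fresh-frozen libraries, the tightest of these sums. ADAM genes took 454 ± 30.8 CPM in PFA-fixed and 512 ± 21.8 CPM in fresh-frozen libraries, and the groups overlapped, with 481.9 CPM in PFA-fixed replicate 4 and 480.5 CPM in fresh-frozen replicate 1. ADAMTS genes took 691 ± 153 CPM in PFA-fixed and 543 ± 54.6 CPM in fresh-frozen libraries, where the groups overlapped, since PFA-fixed replicate 4 had 503 CPM. Sums follow the members with the most reads, rest on the deposited scaling of library sizes and are not adjusted for transcript length.

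MMP2 and TIMP3 fell by nearly the same amount, so their log2 ratio within a library was -1.09 ± 0.50 in PFA-fixed and -1.02 ± 0.23 in fresh-frozen libraries (SD, n = 4 each). By contrast, the log2 ratio of MMP25 to MMP2 was 1.93 ± 0.05 in PFA-fixed and -3.80 ± 0.21 in fresh-frozen libraries, a change of 5.74 that a constant shift of a library cannot alter. These pairs were chosen after their values were seen, and the ratios are given without a test.

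**Figure D4:**
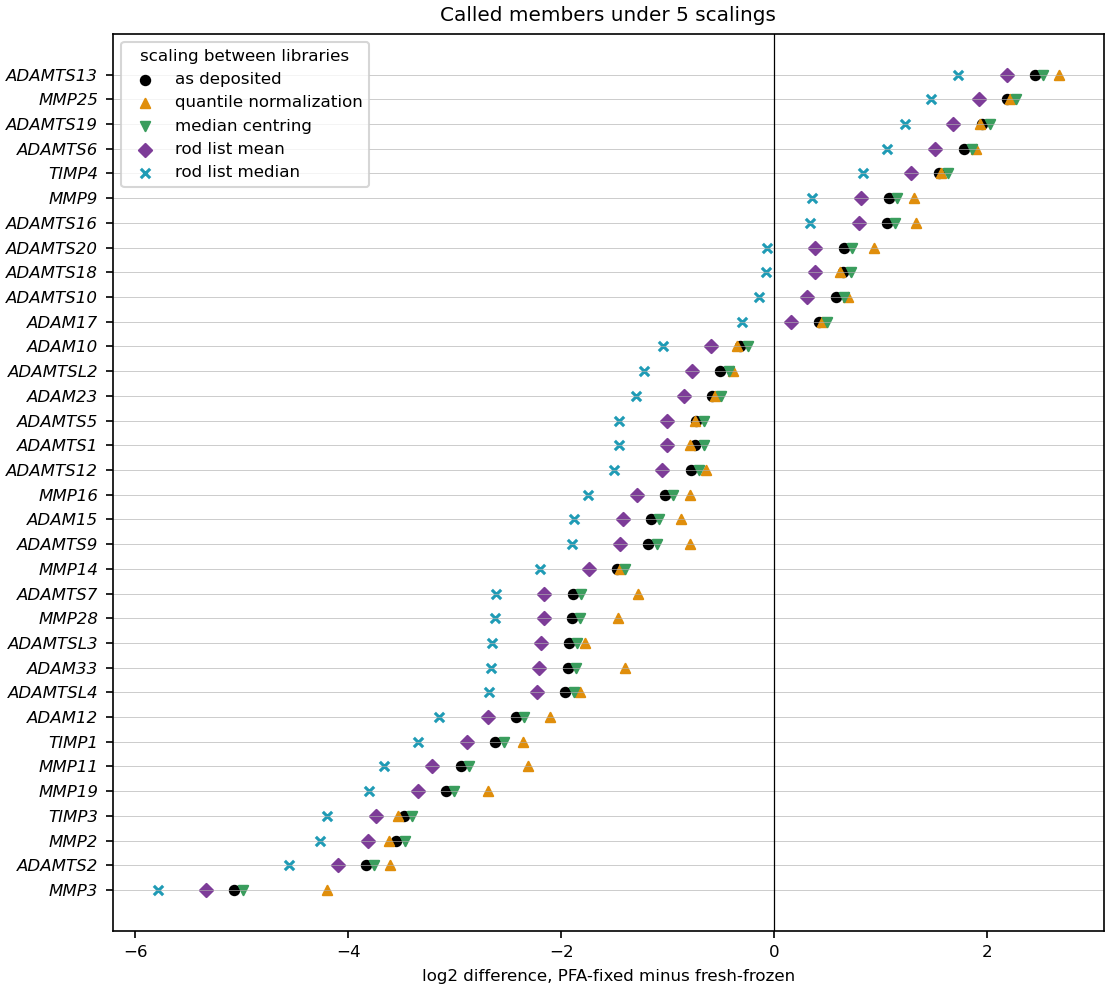
Difference (log2, PFA-fixed minus fresh-frozen) of the 34 called members with the deposited scaling, after quantile normalization and with libraries centred on their median gene or on the mean or median of 22 rod genes. All falls stay left of 0 and 7 rises stay right of it, whereas ADAM17, ADAMTS10, ADAMTS18 and ADAMTS20 cross to the left with the rod list median.

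Genes that work with the members were read from lists chosen with earlier results known, and those named beyond the 2 largest called rises and falls of a list were chosen after their values were seen. Their counts stand beside 34.7% lower and 33.9% higher of all genes, and no list was tested as a set. Of 9 genes that activate zymogens, 5 fell (55.6%) and 1 rose (11.1%). The largest falls among these activators were those of PCSK6, a proprotein convertase, at -1.92, and PLAU, the urokinase plasminogen activator, at -1.71. The convertase FURIN, which activates MMP14 and many ADAM proteins, fell by 0.61 ± 0.07 (SE; limma adjusted p = 1.14e-05), and BSG, an inducer of MMPs, fell by 0.925. PCSK7 was called higher by 0.21. Of 12 other inhibitors and clearance receptors, 7 fell (58.3%) and none rose. The matricellular gene THBS1 fell by 6.58, SERPINF1, of the RPE-derived factor PEDF, by 3.50, the general protease trap A2M by 2.73 and its receptor LRP1 by 1.06. RECK, a membrane-anchored inhibitor of MMPs and ADAM10, fell by 0.47 ± 0.18 (SE; limma adjusted p = 0.0389).

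Of 10 partners of ADAM10 and ADAM17, 5 fell and 2 rose. The tetraspanins TSPAN15, TSPAN5, TSPAN14 and TSPAN17, which carry ADAM10 to the cell surface, fell by 1.15, 0.57, 0.57 and 0.47, while TSPAN33 differed by -0.65 and was not called. SFRP1, a secreted protein that inhibits ADAM10, fell by 0.68. FRMD8 and RHBDF2, which carry and stabilise ADAM17, rose by 1.29 and 1.20 (limma adjusted p = 1.26e-07 and 2.48e-06), while RHBDF1 differed by 0.17 and was not called. Of 20 substrates of these sheddases, 10 fell and 4 rose. The precursor gene APP fell by 1.31 and NOTCH3, a receptor of mural cells, by 3.58, whereas the growth factor ligand EREG rose by 2.02.

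Of 14 synaptic partners of ADAM22, ADAM23 and ADAM11, 4 fell (28.6%) and 5 rose (35.7%), shares near the 34.7% and 33.9% of all genes. The 4 that fell were the secreted ligands LGI2 (-0.97), LGI3 (-0.82), LGI1 (-0.80) and LGI4 (-0.56). Among the 5 that rose were the glutamate receptor gene GRIA2 at 1.22 and the scaffold genes DLG2 at 1.14 and DLG4, of the postsynaptic density protein that binds ADAM22, at 0.49.

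Of 17 substrates of ADAMTS enzymes, 13 fell (76.5%, beside 34.7% of all genes) and 2 rose (11.8%, beside 33.9%). Fibrillar collagens had the largest falls, with COL1A1 at -9.27 and COL1A2 at -8.32, both substrates of ADAMTS2. The proteoglycans ACAN and VCAN fell by 3.59 and 2.67 and COMP by 2.01, whereas COL2A1, the collagen of vitreous, rose by 1.20. Of 17 fibrillin and microfibril genes, 13 fell (76.5%) and 3 rose (17.65%). MFAP4 fell by 6.92 and the fibrillin 1 gene FBN1 fell by 4.12, while MFAP5 rose by 0.90 and POFUT2, which fucosylates the repeats of ADAMTS and ADAMTSL proteins, by 0.69. Of 11 other metallopeptidases and procollagen-processing genes, 5 fell (45.45%) and 1 rose (9.09%). The falls included PCOLCE at -4.96, MME at -4.58 and BMP1, the carboxy-terminal procollagen protease, at -2.02. Several of these genes also stand in the marker lists (COL1A1 and COL1A2 for sclera, VWF for endothelium, NOTCH3 for mural cells and SERPINF1 for RPE), which were lower in the same libraries, and the part of those cells was not tested. COMP, MFAP4 and MME exceeded 1 CPM in every fresh-frozen library but in only 1 PFA-fixed library each. They thus reached the filter only through the group where they are high, which limits their falls and the counts that include them.

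**Figure D5:**
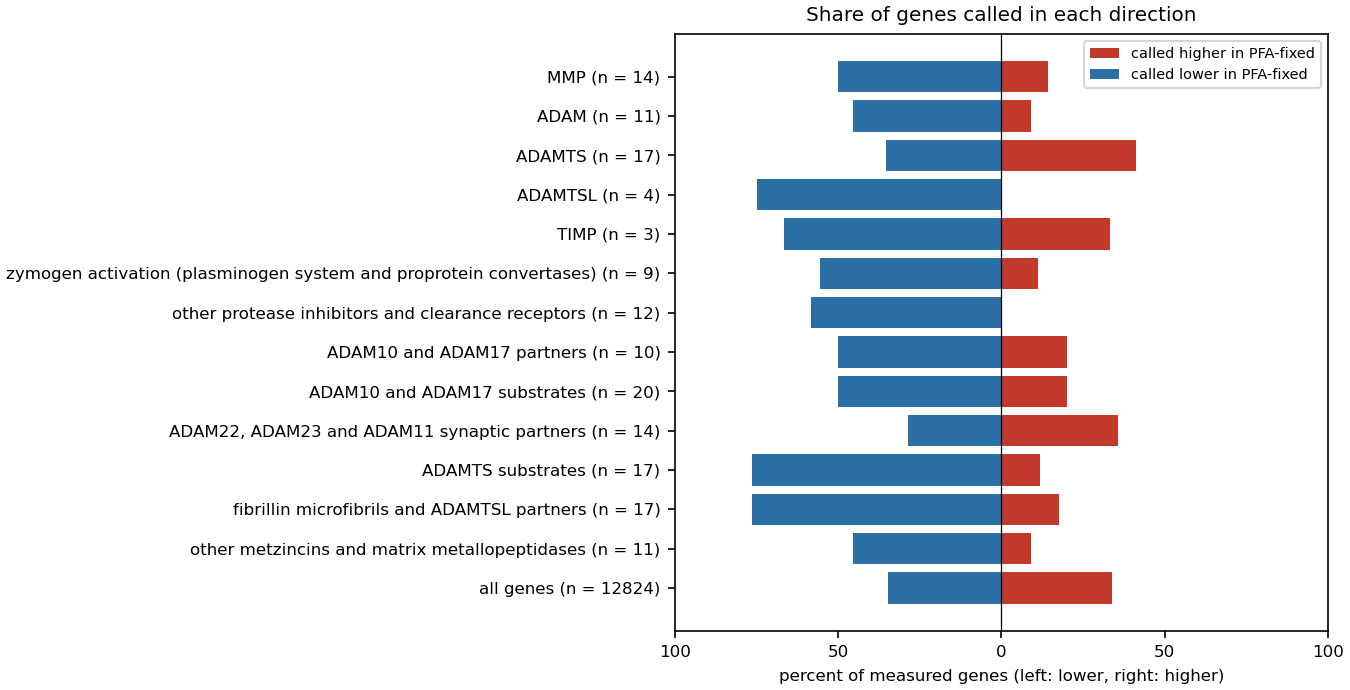
Share of measured genes (horizontal axis, percent) called higher (red, to the right) or lower (blue, to the left) in PFA-fixed retina, for the member families, the lists of interacting genes and all 12824 genes. Substrates of ADAMTS enzymes and microfibril genes have 76.5% called lower, against 34.7% of all genes. COMP and MFAP4 in these lists reached the filter only through the fresh-frozen group.

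The median SD over 4 libraries was 0.26 log2 CPM in PFA-fixed and 0.22 in fresh-frozen libraries, beside 0.15 in PFA-fixed and 0.16 in fresh-frozen libraries for all genes. The widest spread among the members that fell was that of MMP3 in fresh-frozen libraries (SD 0.87), and among those that rose that of ADAMTS19 (SD 1.11 in PFA-fixed and 0.86 in fresh-frozen libraries). Of the 34 calls, 33 held without any single library, the exception being that of MMP9. Of the 15 members not called, 13 were called under at least 1 alternative, each of them on the rod list median, and ADAM8 and ADAMTS17 under none. That scaling shifts all genes down by more than the median rod gene rose.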

How the data were processed

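The authors deposited 1 table of log2 CPM values, read counts relative to a scaled library size, for 12824 gene symbols in 4 PFA-fixed and 4 fresh-frozen libraries of dog retina. The tools listed, per the submitters' processing notes, are kallisto (0.48.0), edgeR and limma, without a stated role. Reference, genome build, strand setting and filter: not given in the sources used here. Effective depth (11030000 to 22810000 reads) came from the spacing of values above the shared lowest one. Of the values worth at most 20 reads, 61.9% to 70.0% came out whole (tolerance 0.1 read; 20% by chance), so no reads were recovered and no count test was run.

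Differences are PFA-fixed minus fresh-frozen, fitted with limma 3.58.1 (R 4.3.3) with an intensity trend and no covariate on all genes, with Benjamini-Hochberg adjustment and a threshold of 0.05. The step was tested on simulated data. Symbols were matched to RefSeq (UU_Cfam_GSD_1.0) for names and neighbours only, and all 49 members matched. Of 69 protein-coding symbols of this form there, 20 were not analysed here. The members and all lists were chosen with earlier results of these data known. Every member is described. A value per library is given for all TIMP and ADAMTSL genes and for members with the 4 largest rises, 4 largest falls or 2 highest means of MMP, ADAM and ADAMTS, and for some others chosen after their values were seen. Alternatives were 8 fits without 1 library, the replicate block, 4 scalings, no trend, array weights, a minimum mean of 3 log2 CPM and log2(CPM + 1).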

Additional observations from a re-analysis of the deposited data

Results flagged for a closer look

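Of 98 groups of 4 libraries (49 members in 2 preparations), 5 held a library far from the other 3 by Dixon's test, where chance gives about 1 in 20. ADAM12 was at 0.26 log2 CPM in PFA-fixed replicate 2, against 1.30 to 1.38 in the other 3 fixed libraries. ADAM33 was at -1.43 log2 CPM in PFA-fixed replicate 4, against -1.06 to -1.0. ADAMTS17 was at 3.76 log2 CPM in PFA-fixed replicate 4, against 3.06 to 3.16. MMP3 was at -1.85 log2 CPM in PFA-fixed replicate 4, against the lowest value of -3.12 in the other 3. With 3 values tied at the lowest one, any different value in the remaining library is flagged, whatever its size. MMP24 was at 4.21 log2 CPM in fresh-frozen replicate 3, against 3.78 to 3.83.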

How the results depend on the processing

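Of the 34 called members, 28 kept call and sign under each of the 17 alternatives that tested them, and the cause of the other changes was not tested. Effective depth was lower in PFA-fixed libraries, which limits the precision of members near the lowest value there. Whether same-numbered libraries share a dog is not stated, and the correlations given next are descriptive and do not settle it. The deviations of same-numbered libraries had correlations of 0.0496, 0.1488, -0.0893 and 0.2237 for replicates 1 to 4. PFA-fixed replicates 1, 2 and 4 correlated best with the fresh-frozen library of the same number, and PFA-fixed replicate 3 with fresh-frozen replicate 2 (0.2012). Other libraries came close for PFA-fixed replicate 2 (0.1457 with fresh-frozen replicate 1) and replicate 4 (0.2188 with fresh-frozen replicate 3). The replicate block left 11 members higher and 23 lower and moved no member's call, with 4336 of all genes higher and 4463 lower.

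Leaving out 1 library gave 10 to 11 members higher and 23 to 26 lower, 1 to 2 MMP genes higher (1 without PFA-fixed replicate 2) and a member median of -0.407 to -0.225. Centring on the rod list mean gave 2638 of all genes higher, 0 ADAM genes higher and 8 lower. The medians were then -0.284 for all genes, -0.593 for members, -0.968 for MMP, -0.593 for ADAM, -0.255 for ADAMTS and -1.485 for ADAMTSL. Centring on the rod list median gave 1033 of all genes higher and 8605 lower, and 5 members higher and 36 lower. The shift it made was larger than the median difference of the rod genes themselves (0.28 as deposited). Within families it gave 1 MMP gene higher and 12 lower, 0 ADAM genes higher and 9 lower, and 3 ADAMTS genes higher. The medians were then -0.737 for all genes, -1.046 for members, -1.421 for MMP, -1.046 for ADAM, -0.708 for ADAMTS, -1.938 for ADAMTSL and -3.340 for TIMP. Quantile normalization gave medians of 0.072 for all genes, -0.188 for members, -0.480 for MMP, 0.404 for ADAMTS and -1.083 for ADAMTSL, and median centring 0.061 for all genes and -0.248 for members. A minimum mean of 3 log2 CPM tested 33 members, so fewer could be called: 13 were lower, with 3 each of MMP, ADAM and ADAMTS and 1 TIMP gene. Its medians were 0.007 for all genes, -0.125 for members, -0.268 for MMP, 0.575 for ADAMTS and -0.965 for TIMP. The TIMP median was -2.271 with log2(CPM + 1).

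Signs turned for 4 called members, all with the rod list median (ADAM17 -0.300, ADAMTS10 -0.144, ADAMTS18 -0.074 and ADAMTS20 -0.069), and otherwise for members without a call. With the rod list mean and then its median, ADAM8 was at -0.207 and -0.660, ADAM9 at -0.257 and -0.710, ADAMTS4 at -0.255 and -0.708, ADAMTS17 at -0.085 and -0.538, and MMP21 at -0.149 and -0.602. After quantile normalization ADAM9 was at -0.067, ADAM11 at 0.196, ADAMTS3 at 0.088, ADAMTS8 at 0.108 and MMP17 at 0.240. Median centring put ADAMTS8 at 0.023 and ADAMTSL1 at 0.0016, and array weights put ADAM9 at -0.014 and ADAMTS4 at -0.061. Without single libraries ADAM8 ran between -0.208 and 0.220, ADAM9 between -0.049 and 0.056, ADAMTS3 between -0.407 and 0.107, ADAMTS4 between -0.122 and 0.146, ADAMTS8 between -0.178 and 0.061, ADAMTS17 between -0.030 and 0.316, MMP17 between -0.357 and 0.136, and MMP21 between -0.0083 and 0.237.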
